A study of Mus musculus with 21 samples.

Results

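Cardiomyocytes made from mouse induced pluripotent stem (iPS) cells and purified with puromycin (iPS CM) were compared with unselected whole embryoid bodies of the same line (iPS EB), both collected at day 16 of differentiation. The 6 samples, 3 of each group, were picked by their labels from 21 arrays in all. The iPS CM samples came from aPIG TiB7.4 iPS cells that formed embryoid bodies in suspension and then received puromycin at 8 µg/ml from day 9. The iPS EB samples came from the same batches and had no puromycin. Samples 1, 2 and 3 of both groups started from cells at passages 5, 7 and 8. Undifferentiated iPS cells of that line and the matching ES CM, ES EB and undifferentiated ES samples of the aPIG D3 embryonic stem (ES) cell line, 3 samples each, were used for context. The undifferentiated cells were grown with LIF on mouse embryonic fibroblast feeders. All of these groups carry the αPIG construct, so the unselected embryoid bodies carry it too. The labels used here do not name its promoter, and from general knowledge of the construct it is taken to be the heart-specific Myh6 promoter, which controls a puromycin resistance gene together with a green fluorescent reporter. There was 1 iPS line and 1 ES line, and the submitters' design text calls the replicates independent. The series also holds 3 arrays of primary adult fibroblasts from mice aged 8 weeks. They entered the statistical model and are cited for the blood genes.

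An embryoid body is a ball of differentiating pluripotent cells that holds derivatives of all germ layers, with beating cardiomyocytes as a minority. Puromycin stops protein synthesis, so cells without the resistance gene die, and a resistance gene under a cardiac promoter spares the cells that use that promoter. A working cardiomyocyte is filled with sarcomeres, the repeating units of actin, myosin and titin that shorten when calcium binds troponin, and it draws most of its energy from mitochondrial oxidation of fatty acids. In whole-culture RNA, fewer cells of a type and less RNA per cell cannot be told apart, and neither can the loss of other cells be separated from the effects of the drug on the cells that remain.

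The promoters of 3 genes that encode sarcomere proteins of the heart are printed here because the selection is taken to act through the first of them and the other two belong to the sarcomere genes that were higher in iPS CM. The sequences are from RefSeq (GRCm38.p6), 300 bases each, from 250 before to 50 after the annotated start, and run 5′ to 3′ on the minus strand, where all 3 genes lie. Capitals mark matches on either strand to 3 motifs. The first is the polymerase-positioning box spelled TATAAA. The second is GATAA, the core bound by zinc finger factors such as Gata4. The third is the CArG box, the type of site that serum response factor binds. The Myh6 window lies at chr14:54966558-54966857 and holds 1 match to the first motif. The Actc1 window, at chr2:114052826-114053125, holds 1 match to the first motif and 1 CArG box. The Myl7 window, at chr11:5898733-5899032, holds 1 match to the second motif and 1 CArG box. Of 32851 promoters of this length, 13.6% hold the first motif, 25.4% the second and 1.63% a CArG box. The matches describe letters in these windows only. Both TATAAA matches lie at or after the annotated start, not before it.
Myh6: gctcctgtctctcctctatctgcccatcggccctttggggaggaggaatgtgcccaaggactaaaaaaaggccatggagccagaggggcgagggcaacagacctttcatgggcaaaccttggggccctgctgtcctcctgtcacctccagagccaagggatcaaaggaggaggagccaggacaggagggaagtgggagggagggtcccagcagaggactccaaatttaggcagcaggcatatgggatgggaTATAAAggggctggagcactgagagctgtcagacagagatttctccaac
Actc1: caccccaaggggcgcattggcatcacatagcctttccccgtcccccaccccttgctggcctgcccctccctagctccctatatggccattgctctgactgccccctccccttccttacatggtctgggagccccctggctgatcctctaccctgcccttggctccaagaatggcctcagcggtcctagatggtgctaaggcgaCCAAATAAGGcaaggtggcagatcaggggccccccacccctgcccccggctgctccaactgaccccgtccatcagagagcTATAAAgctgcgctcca
Myl7: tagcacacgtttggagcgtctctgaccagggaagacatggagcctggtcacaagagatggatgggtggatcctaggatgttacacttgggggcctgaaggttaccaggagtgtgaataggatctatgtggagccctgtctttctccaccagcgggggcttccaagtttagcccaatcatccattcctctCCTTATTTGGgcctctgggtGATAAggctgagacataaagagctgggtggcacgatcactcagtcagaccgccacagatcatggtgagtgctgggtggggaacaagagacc

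Myh6, the α-myosin heavy chain gene whose promoter is taken to drive the resistance gene, comes first for that reason. Its endogenous transcript had log2 intensities of 12.5, 13.22 and 12.98 in iPS CM, against 7.12, 7.01 and 8.56 in iPS EB. The means were 12.9 ± 0.37 and 7.56 ± 0.86 (SD, n = 3 each), a 40.4-fold higher intensity in iPS CM (log2 change 5.34 ± 0.32, SE, adjusted p = 2.6e-10). All iPS CM samples lay above all iPS EB samples, and the iPS EB sample nearest to them was sample 3. Another Myh6 probe read 8.18, 8.68 and 8.48 in iPS CM and was not above background on any iPS EB array (at least 15.2-fold higher in iPS CM). If the cells were selected through this promoter, as general knowledge of the construct has it, its level checks the labels and is no independent result. In undifferentiated iPS cells the first probe averaged 4.57 and was above background in 1 of 3 samples.

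**Figure D1:**
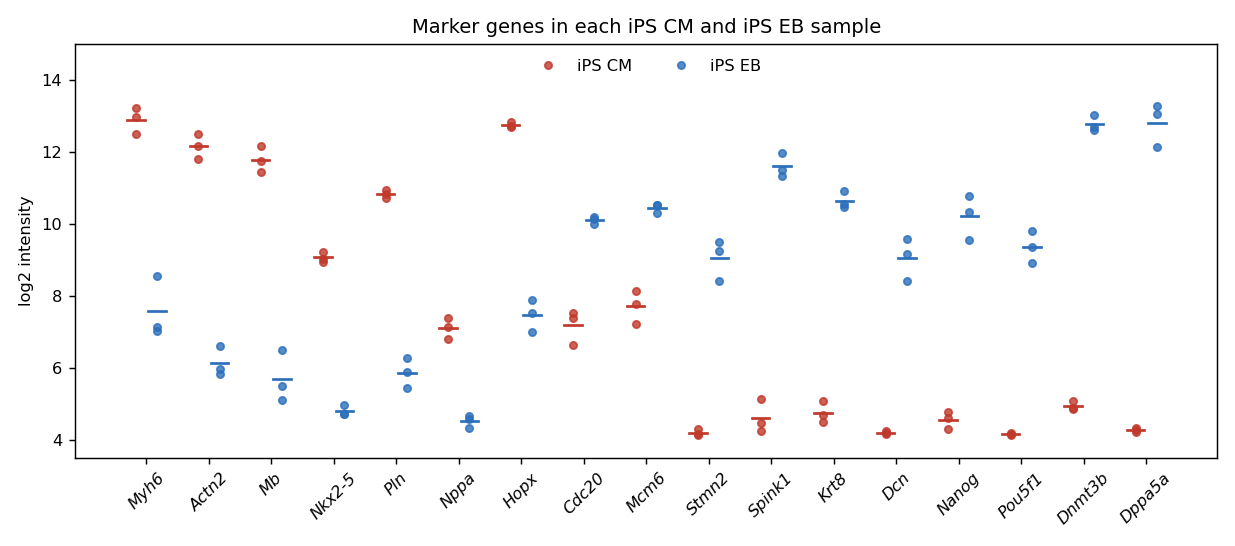
Log2 intensity (y axis) of 17 genes in each sample, iPS CM in red on the left and iPS EB in blue on the right of each panel; points are samples and bars are group means. Myh6 and the other heart genes are higher in all iPS CM samples (Myh6 12.5 to 13.22 in iPS CM, against 7.01 to 8.56 in iPS EB), and the cell cycle, neural, endoderm, matrix and pluripotency genes are higher in all iPS EB samples.

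Across the array, 12227 of 21047 probes with detectable signal differed between iPS CM and iPS EB at an adjusted p below 0.05, which is 58.1% of those tested. Of the tested probes, 28.5% (5997) were higher in iPS CM and 29.6% (6230) were lower. With arrays scaled by the median in place of quantile normalisation, 3887 of the 21047 tested probes were higher and 5835 lower. Higher calls then made up 40% of all calls, against 49%. Of the quantile-normalised calls, 2597 higher and 2777 lower ones differed by at least 2-fold, and 112 higher and 81 lower ones by at least 16-fold. The median log2 change of all tested probes was -0.02, and the median SD within a group was 0.154 in iPS CM and 0.166 in iPS EB. The groups did not overlap on 30.8% of tested probes with iPS CM higher and on 34.2% with iPS CM lower. Detection itself also changed. On all 3 iPS CM arrays and no iPS EB array, 624 probes were above background (1.38% of 45281), while 1806 were above background on all 3 iPS EB arrays and no iPS CM array (3.99%). Between 14416 and 15509 probes were detected per iPS CM array, against 16543 to 17600 per iPS EB array.

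The 15 probes with the highest changes and a gene name stood for 12 genes, and most are known from muscle. Mb encodes myoglobin, the oxygen store of heart and slow muscle. It had log2 intensities of 12.15, 11.44 and 11.75 in iPS CM, against 5.09, 5.48 and 6.49 in iPS EB, a change of 6.09 ± 0.29 (68.3-fold, adjusted p = 1.8e-11). Actn2, the α-actinin that anchors actin at the Z disc, read 11.81, 12.5 and 12.17 in iPS CM and 5.95, 5.82 and 6.6 in iPS EB (65.6-fold, adjusted p = 2.8e-12). Popdc2, a cyclic AMP-binding membrane protein of heart muscle, read 12.05, 12.61 and 12.53 in iPS CM and 6.37, 5.83 and 7.49 in iPS EB (57-fold). The groups did not overlap in any of these genes, which was a condition for entering the list. The list went on with Myl1, Art3, Tcap, Myl9, Myh6, Mybpc3, Ttn, Kcng2 and Hopx, whose log2 changes lay between 5.29 and 5.7. Kcng2 encodes a modulatory potassium channel subunit and was nearly flat within groups, at 9.55, 9.74 and 9.72 in iPS CM and 4.27, 4.22 and 4.65 in iPS EB. Hopx, a small homeodomain protein that acts without binding DNA itself, read 12.69, 12.83 and 12.72 in iPS CM and 7.51, 6.98 and 7.88 in iPS EB (39.1-fold, adjusted p = 4.5e-13). In all 15 probes iPS EB sample 3 was the highest of the iPS EB samples.

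The 15 probes with the lowest changes stood for 12 genes, and 10 of these probes were not above background on any iPS CM array. Dppa5a, a marker of mouse pluripotent cells, read 4.32, 4.21 and 4.26 in iPS CM, where it was not above background, against 13.04, 13.27 and 12.13 in iPS EB, a drop of at least 272-fold (adjusted p = 6.2e-15). Dnmt3b, a de novo DNA methyltransferase of early embryonic cells, read 4.89, 4.85 and 5.07 in iPS CM, against 12.69, 13.03 and 12.6 in iPS EB (228-fold lower in iPS CM). Trh, the precursor of thyrotropin-releasing hormone, had a drop of at least 90-fold. Ifitm1 and Ifitm3, interferon-induced membrane proteins, were at least 95.9-fold and at least 37.9-fold lower. Dlk1, a membrane protein related to Notch ligands, was at 5.1, 4.51 and 4.88 in iPS CM and 11.67, 11.81 and 12.23 in iPS EB (135-fold lower in iPS CM). Its undifferentiated level was 7.1, below that of iPS EB. The remaining genes were Spink1, Dppa4, Dnmt3l, Krt8, Ooep and Cldn6. Here iPS EB sample 2 was the highest of its group in 12 probes and sample 3 in 3 probes.

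**Figure D2:**
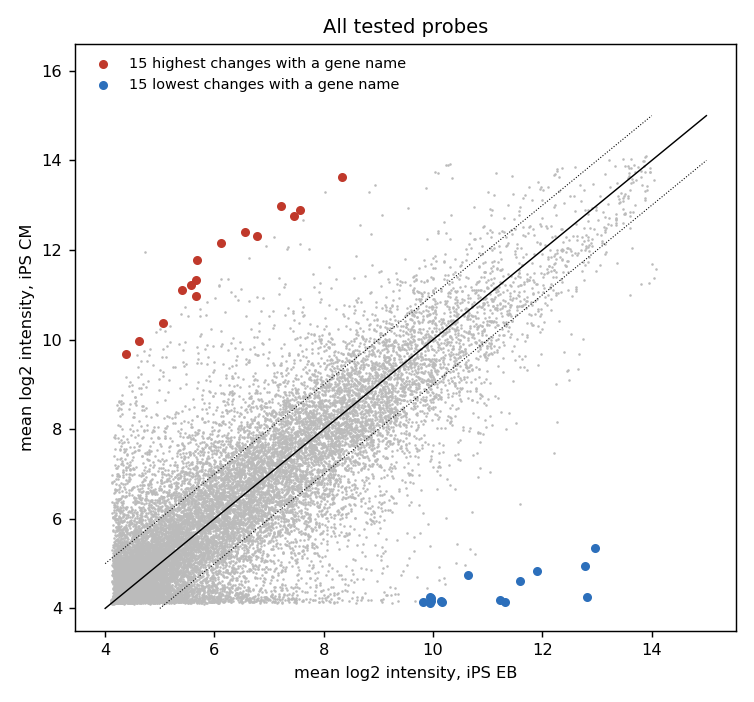
Mean log2 intensity of each of the 21047 tested probes in iPS CM (y axis) and iPS EB (x axis); the solid line marks equality and the dotted lines a 2-fold difference. Red points are the 15 highest named changes, 5.29 to 6.09 on the log2 scale, and blue points the 15 lowest, -8.55 to -5.66, most of which lie at the floor of the iPS CM axis.

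Sarcomere genes were nearly all higher in iPS CM. Of 28 genes in the list, 22 could be tested with 44 probes, of which 41 (93.2%) were higher in iPS CM and 2 (4.55%) lower, against 28.5% and 29.6% of all probes. Their median log2 change was 3.67, beside -0.02 for all tested probes, and the 3 cultures gave 3.69, 4.38 and 3.2. Tcap, the titin cap, read 11.44, 11.31 and 10.91 in iPS CM and 5.47, 5.18 and 6.05 in iPS EB (50.3-fold, adjusted p = 9.6e-12). Mybpc3, the cardiac myosin-binding protein C, read 10.16, 10.51 and 10.46 in iPS CM, against 4.87, 4.43 and 5.87 in iPS EB (40-fold, adjusted p = 6.8e-12). Ttn, the giant spring of the sarcomere, read 10.11, 11.48 and 11.32 in iPS CM and 5.28, 5.66 and 6.08 in iPS EB (39.2-fold). The groups were apart in each of these genes, which belong to the highest changes named above, where this was a condition. Actc1, the cardiac α-actin, read 12.03, 12.26 and 12.01 in iPS CM and 6.95, 6.16 and 7.73 in iPS EB, and Myl7, the atrial light chain, read 13.3, 13.6 and 13.43 in iPS CM and 8.87, 8.16 and 9.8 in iPS EB (22.6-fold, adjusted p = 9.8e-10). Myl2, the ventricular light chain, read 13.58, 13.92 and 13.75 in iPS CM, against 9.87, 9.65 and 10.59 in iPS EB. The atrial and the ventricular light chain thus both stood higher in all iPS CM samples, with log2 changes of 4.5 for Myl7 and 3.72 for Myl2. Myh7, the β-myosin heavy chain, read 4.82, 5.19 and 5.41 in iPS CM and 4.18, 4.29 and 4.29 in iPS EB, with no iPS EB array above background, so it was higher in iPS CM by at least 1.53-fold.

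Tropomyosin 1 was the exception among the sarcomere genes. Tpm1 encodes the rod that covers the myosin-binding sites of actin, and both of its probes were lower in iPS CM. The stronger one read 8.03, 7.7 and 7.42 in iPS CM, against 10.76, 10.51 and 11.33 in iPS EB, a log2 change of -3.15 ± 0.23 (8.86-fold lower in iPS CM, adjusted p = 2.9e-09), and the other changed by -2.98. Tpm1 is used in many cell types through alternative exons, and which of its transcripts the probes bind was not examined. The 1 probe of the list that was not called belongs to Ldb3, with a log2 change of -0.12 (adjusted p = 0.45), while its other 4 probes were called. On the sum over the list's probes, iPS CM samples held 131351, 156931 and 147521 intensity units above background, against 10291, 7720 and 18322 in iPS EB. The lowest iPS CM sum lay far above the highest iPS EB sum, that of sample 3. With iPS EB sample 3 left out, the share of sarcomere probes called higher was again 93.2%.

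Calcium handling and membrane excitability genes followed. Of 28 genes, 20 were tested with 49 probes, and 41 probes were higher, 1 was lower and 7 were not called (median log2 change 1.2). Pln, phospholamban, which restrains the calcium pump of the sarcoplasmic reticulum, read 10.84, 10.94 and 10.72 in iPS CM and 5.88, 5.44 and 6.27 in iPS EB (31.3-fold, adjusted p = 2e-13). Ryr2, the calcium release channel, read 10.32, 10.7 and 10.56 in iPS CM and 5.48, 5.46 and 6.28 in iPS EB (27.6-fold, adjusted p = 5.7e-12). Both groups were tight in these genes, with iPS EB sample 3 again nearest to iPS CM. Hrc, a calcium-binding protein of the reticulum, was 20.9-fold higher in iPS CM (adjusted p = 2.2e-12). The pump itself, Atp2a2, read 13.76, 13.89 and 14.08 in iPS CM, against 10.1, 9.82 and 10.78 in iPS EB (12.8-fold). Slc8a1, the sodium-calcium exchanger, changed by 4.19 on the log2 scale. Casq2, which buffers calcium in the reticulum, and Jph2, which ties the reticulum to the cell membrane, were not above background in iPS EB, and their iPS CM levels were higher by at least 6.6-fold and 6.15-fold. The potassium channel gene Kcnh2 changed by 3.36 and the calcium channel subunit Cacnb2 by 3.28. Another probe of each of Slc8a1, Atp2a2, Jph2 and Kcnh2 was among the 7 not called. These probes passed the test only in some reanalyses, for example at 0.33 for Atp2a2 with a fixed replicate block and 0.67 for Slc8a1 without iPS EB sample 3. Sln, sarcolipin, another brake on the pump, varied among cultures, at 7.23, 9.41 and 9.39 in iPS CM and 4.72, 5.19 and 6.91 in iPS EB, yet the groups did not overlap.

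Gja1 moved the other way. It encodes connexin 43, the main gap junction protein of working heart muscle, and is also made by many other cell types. It read 11.1, 8.42 and 9.49 in iPS CM, against 11.96, 12 and 11.97 in iPS EB (4.95-fold lower in iPS CM, log2 change -2.31 ± 0.43, adjusted p = 0.00018). The iPS EB samples were almost equal and the iPS CM samples spread widely, all below them. Gja5, connexin 40 of atrial and conduction tissue, had 3 probes with changes of 0.49 (adjusted p = 0.014), 0.44 (adjusted p = 0.095) and 0.39 (adjusted p = 0.088). The call on the first of these Gja5 probes was lost without iPS CM sample 1 (0.32, adjusted p = 0.096), and without iPS CM sample 2 the others passed the test with 0.67 and 0.58.

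Of the 18 cardiac transcription factor and hormone genes, 17 were tested with 29 probes, and 26 probes were higher, 1 was lower and 2 were not called (median log2 change 2.2). Nkx2-5, the homeobox factor that marks the heart lineage, read 9.22, 9.03 and 8.95 in iPS CM and 4.72, 4.71 and 4.95 in iPS EB (19.4-fold, adjusted p = 4.9e-14). The SD between cultures was small on both sides. Ankrd1, a stretch-responsive cardiac repeat protein, was 35.1-fold higher in iPS CM, and Myocd, the coactivator of serum response factor, 10.8-fold. Mef2c and Tbx20 changed by 3.09 and 3.03 on the log2 scale, Hand2 by 2.39, Gata6 by 2.1 and Gata4 by 1.03. Irx4, a factor of ventricular muscle, was at least 5.04-fold higher in iPS CM. Nppa, the precursor of atrial natriuretic peptide, read 7.38, 6.81 and 7.14 in iPS CM and 4.58, 4.33 and 4.65 in iPS EB (6.04-fold, adjusted p = 1.9e-09), and the brain-type peptide gene Nppb changed by 1.63. Isl1, a factor of cardiac progenitors of the second heart field and of several neural and endodermal cells, was the exception. It read 4.56, 5.79 and 6.53 in iPS CM, against 7.78, 7.72 and 7.77 in iPS EB (4.38-fold lower in iPS CM, adjusted p = 1.6e-05), and its iPS CM samples were spread over about the same distance as separated their mean from iPS EB. Hand1 had 5.18, 4.72 and 5.15 in iPS CM and 4.42, 4.21 and 5.38 in iPS EB, so the groups overlapped (log2 change 0.34, adjusted p = 0.17). Without iPS EB sample 3 the Hand1 change was 0.7 and passed the test (adjusted p = 0.00038). Tbx18, a factor of the sinus horns and epicardium, had a change of -0.05 (adjusted p = 0.63).

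Genes of fatty acid oxidation and muscle mitochondria were also higher. Of 22 genes, 20 were tested with 28 probes, of which 26 were higher, none was lower and 2 were not called (median log2 change 2.59). Cox6a2 and Cox8b encode the muscle forms of subunits of cytochrome c oxidase, the last enzyme of the respiratory chain. Cox6a2 read 13.28, 13.23 and 13.35 in iPS CM and 7.73, 7.51 and 8.8 in iPS EB (38.6-fold, adjusted p = 1.8e-11), and Cox8b was 34.8-fold higher (adjusted p = 5.2e-09). Ppargc1a, a coactivator that drives mitochondrial gene expression, read 9.7, 9.98 and 10.15 in iPS CM and 4.73, 4.89 and 5.97 in iPS EB (26.9-fold). In each of these the groups were apart with iPS CM higher, as on 30.8% of all tested probes. Cpt1b, which moves fatty acids into muscle mitochondria, changed by 3.98 on the log2 scale, the dehydrogenase Acadl by 3.02, the lipase Lpl by 3 and the fatty acid carrier Fabp3 by 2.15. The exceptions were single probes of Slc25a4, an ADP/ATP carrier (change -0.03, adjusted p = 0.82), and of Ckm, the muscle creatine kinase. Ckm read 6.05 in iPS CM sample 1 and 4.23 in the other two, against 4.12, 4.13 and 4.12 in iPS EB (adjusted p = 0.063). Without iPS CM sample 1 the Ckm change of 0.71 was 0.11 (adjusted p = 0.5), and without sample 2 or 3 it was 1.01 (adjusted p = 0.014).

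**Figure D3:**
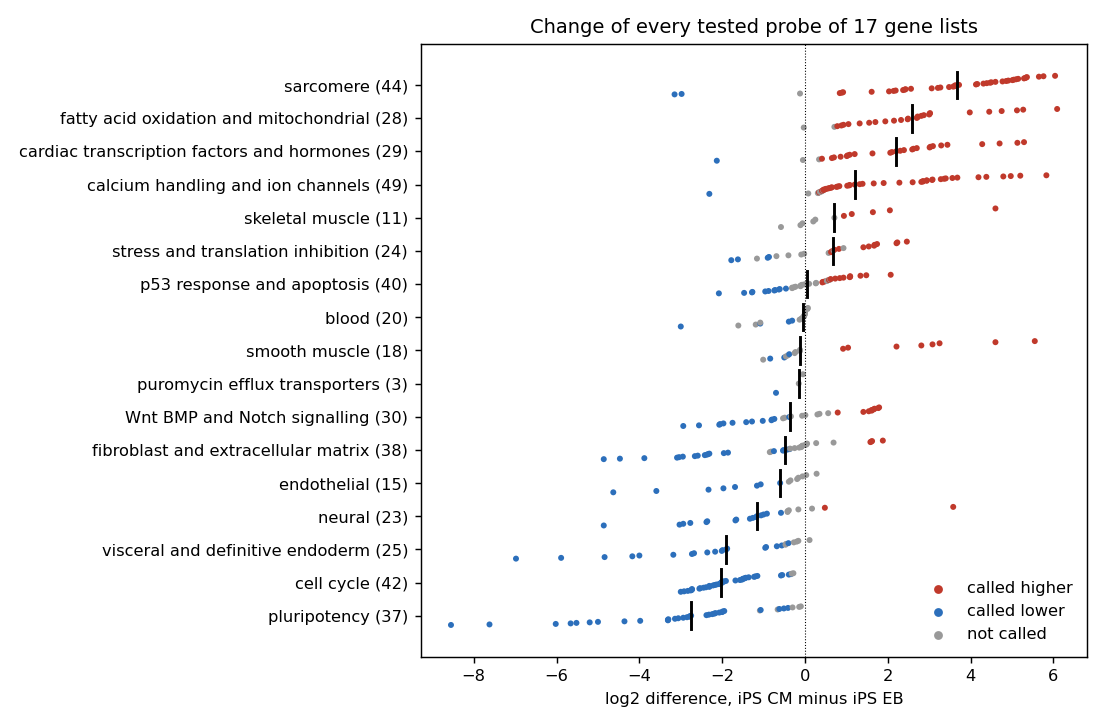
Log2 difference of iPS CM minus iPS EB (x axis) for each tested probe of 17 gene lists (y axis); red points were called higher in iPS CM, blue points lower and grey points not called, and black ticks are list medians. The 4 heart lists lie to the right with medians of 3.67, 1.2, 2.2 and 2.59, and the cell cycle and pluripotency lists to the left with medians of -2.02 and -2.75.

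Cell cycle genes were lower in iPS CM. Of 26 genes, 21 were tested with 42 probes, and 40 of these (95.2%) were lower and none higher, with a median log2 change of -2.02. Cdc20, an activator of the complex that starts anaphase, read 7.53, 6.63 and 7.38 in iPS CM and 9.99, 10.18 and 10.14 in iPS EB (7.59-fold lower in iPS CM, adjusted p = 5.6e-10). Tyms, the enzyme that makes thymidylate for DNA synthesis, read 7.55, 6.56 and 7.13 in iPS CM, against 10.42, 9.87 and 9.93 in iPS EB (8-fold lower). Mcm6, a subunit of the replicative helicase, read 7.77, 7.2 and 8.14 in iPS CM and 10.53, 10.51 and 10.3 in iPS EB (6.69-fold lower). Bub1b, a spindle checkpoint kinase, was 7.09-fold lower (adjusted p = 2.2e-10), and Cdk1, the mitotic kinase, changed by -2.14. The groups were apart in all of these genes with iPS CM lower, as on 34.2% of all tested probes. Sample 2 of iPS CM was the lowest in Cdc20, Tyms, Mcm6, Bub1b and Cdk1. These genes were not silent in iPS CM, since 34 to 36 of the list's probes were above background there, against 38 to 44 in iPS EB. The 2 probes not called were 1 of Mcm4 and 1 of Mcm6.

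The pluripotency genes were lower as well. All 20 genes were tested, with 37 probes, of which 32 (86.5%) were lower, none higher and 5 not called, with a median log2 change of -2.75. Pou5f1 (Oct4), the central factor of the pluripotent state, read 4.14, 4.15 and 4.17 in iPS CM, where it was not above background, against 9.36, 9.8 and 8.92 in iPS EB, a drop of at least 24.7-fold (adjusted p = 1.1e-11). Nanog, its partner, was likewise not above background in iPS CM and at least 44.7-fold lower there (adjusted p = 3.3e-11). Sall4, a zinc finger factor of the same network, read 4.39, 4.64 and 5.01 in iPS CM and 10, 10.4 and 10.2 in iPS EB (45.8-fold lower in iPS CM). Dppa4 and Dnmt3l were at least 43.3-fold and at least 42.4-fold lower. The sum over the list was 943, 994 and 969 in iPS CM, against 29662, 37502 and 19567 in iPS EB, and iPS EB sample 3 held the least. In undifferentiated iPS cells the same sum was 51442, 58309 and 59625. Of the list's probes, 22 were above background in all iPS EB samples and in no iPS CM sample. The calls not made were on Fgf4 (change -0.3, adjusted p = 0.091), on 2 probes of Klf4 and on 1 probe each of Esrrb and Dppa4. Of the Klf4 probes, 1 changed by -1.46 without iPS EB sample 3 and then passed the test (adjusted p = 0.027).

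Markers of the other cell types that an embryoid body can hold were called lower in iPS CM on 76% of endoderm, 69.6% of neural, 53.3% of endothelial, 50% of fibroblast and matrix, 20% of blood and 16.7% of smooth muscle probes. Beside 29.6% of all probes, the blood and smooth muscle shares were below the background. The part of these markers in the differences of the heart genes was not tested. For endoderm, 19 of 24 genes were tested with 25 probes, of which 19 were lower and none higher (median log2 change -1.9). Spink1, a trypsin inhibitor of pancreas and gut, read 5.13, 4.46 and 4.24 in iPS CM and 11.49, 11.96 and 11.33 in iPS EB (126-fold lower in iPS CM, adjusted p = 6.9e-13). The simple epithelial keratins Krt8 and Krt18 were 59.2-fold and at least 21.2-fold lower, and Cdh1, the epithelial cadherin, at least 14.1-fold. Ttr, transthyretin, made by visceral endoderm and liver, read 5.08, 4.79 and 4.72 in iPS CM and 7.16, 8.79 and 10.63 in iPS EB (16-fold lower, adjusted p = 6.8e-06). Its iPS EB cultures differed widely among themselves. Afp, α-fetoprotein, was not above background in iPS CM and at least 2.6-fold lower. The endoderm factor Foxa1 changed by -3.18, and Foxa2 and Sox17 were not above background in iPS CM, with drops of at least 3.05-fold and 4.51-fold, whereas Hnf4a, Amn and Apob had changes of -0.2, 0.11 and -0.27 that did not pass the test (adjusted p from 0.17 to 0.57). Without iPS EB sample 1 the Apob change was -0.51 and passed it (adjusted p = 0.0048). The summed endoderm level was 404, 301 and 297 in iPS CM, against 6130, 8204 and 9066 in iPS EB.

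Neural genes gave 16 lower, 2 higher and 5 uncalled probes of 23 (13 of 21 genes tested, median log2 change -1.16). Stmn2, a tubulin-binding protein of growing neurons, was not above background in iPS CM and read 9.5, 9.24 and 8.42 in iPS EB, at least 20-fold lower in iPS CM (adjusted p = 3.3e-12). Gap43, a growth cone protein, was at least 5.33-fold lower, and Sox11, a factor of young neurons, 8.16-fold lower. Ncam1, the neural cell adhesion molecule, which heart and muscle cells also make, went the other way on 1 of its probes, with 7.38, 8.02 and 8 in iPS CM and readings not above background in iPS EB (at least 9.71-fold higher in iPS CM, adjusted p = 3.1e-11). Its other probes had changes of 0.48, which was called, and of 0.17 and -0.42, which were not. The neural sum was 792, 998 and 1239 in iPS CM, against 6215, 3476 and 4578 in iPS EB. Syt1, a synaptic vesicle protein, had a change of -0.39 (adjusted p = 0.19), which without iPS EB sample 2 was -0.77 and passed the test (adjusted p = 0.0015).

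Of 15 endothelial probes (12 of 15 genes), 8 were lower and 7 were not called, with none higher. Flt1, a receptor for vascular endothelial growth factor, was not above background in iPS CM and read 8.49, 8.97 and 8.94 in iPS EB, at least 16.8-fold lower in iPS CM (adjusted p = 6.3e-11). Egfl7, a matrix protein made by endothelium, was 12.1-fold lower (adjusted p = 4.8e-11). Emcn, endomucin of capillary and venous endothelium, was at least 3.37-fold lower. By contrast the changes of Pecam1 (0.28, adjusted p = 0.47), Cdh5 (-0.19, adjusted p = 0.19) and Vwf (-0.16, adjusted p = 0.31), all defining endothelial genes, did not pass the test, although Cdh5 did with median scaling (-0.33, adjusted p = 0.043). The endothelial sum was 144, 104 and 126 in iPS CM and 1085, 1420 and 1525 in iPS EB. It was 906, 813 and 891 in undifferentiated iPS cells, so these probes also had signal there. Blood genes were hardly measurable in iPS CM and iPS EB. Of the list's probes, 7, 5 and 12 were above background in iPS EB, against 18, 18 and 17 on the adult fibroblast arrays of the series. Of the 20 blood probes tested (15 of 22 genes), 4 were lower and 16 were not called. This share of 20% fell to 10% when iPS EB sample 3 or any 1 of the iPS CM samples was left out. Laptm5, a lysosomal protein of blood cells, had a drop of at least 5.53-fold. The embryonic globin Hbb-bh1 read 4.15, 4.17 and 4.19 in iPS CM and 5.36, 4.71 and 7.26 in iPS EB, and although the groups did not overlap the change did not pass the test (adjusted p = 0.15). No more than 1 blood probe was above background on any iPS CM array, and the blood sum was 111, 83 and 87 in iPS CM, against 241, 305 and 600 in iPS EB.

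Fibroblast and matrix genes split. Of 38 probes (23 of 25 genes), 19 were lower, 4 higher and 15 not called (median log2 change -0.48). Dcn, decorin, a collagen-binding proteoglycan, was not above background in iPS CM and read 9.16, 8.41 and 9.59 in iPS EB, at least 20-fold lower in iPS CM (adjusted p = 9.9e-10). Mmp2, a matrix metalloproteinase, was at least 14.5-fold lower, the proteoglycan Lum at least 10.9-fold and fibronectin, Fn1, at least 5.71-fold on its brightest probe. Among those that were higher in iPS CM, Sparc, a matrix-binding glycoprotein, read 10.72, 11 and 10.49 in iPS CM and 9.07, 8.64 and 9.69 in iPS EB, and Col4a2, a basement membrane collagen that muscle cells also make, changed by 1.58. Changes that did not pass the test included Col1a1 (-0.85, adjusted p = 0.073), Postn (-0.06, adjusted p = 0.57) and Ddr2 (0, adjusted p = 0.99). Without iPS EB sample 2 the Col1a1 change was -1.09 and passed it (adjusted p = 0.041). The list's sum was 4411, 6187 and 5121 in iPS CM, against 4941, 3657 and 7882 in iPS EB, so here the groups overlapped. Sample 3 was the highest of the iPS EB samples on 29 of the 38 probes.

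Smooth muscle and skeletal muscle lists hold genes that young cardiomyocytes share. Of 18 smooth muscle probes (8 of 11 genes), 8 were higher, 3 lower and 7 not called. Without iPS EB sample 3, none was called lower (0%). Desmin, Des, the muscle intermediate filament, read 10.78, 11.15 and 11.03 in iPS CM and 6.03, 6.24 and 6.87 in iPS EB (24.3-fold). Acta2, the α-actin of smooth muscle and of the early heart, read 10.63, 10.28 and 10.1 in iPS CM, against 7.11, 5.79 and 8.36 in iPS EB (9.51-fold, adjusted p = 6e-05). Myl9 was 46.9-fold higher in iPS CM. In contrast, Tagln (-0.46, adjusted p = 0.28) and Actg2 (-1.01, adjusted p = 0.19) were not above background in iPS CM and did not pass the test. The markers Myh11 and Cnn1, which define mature smooth muscle, did not reach the detection filter. Of 11 skeletal muscle probes (8 of 17 genes), 5 were higher and none lower. Mylpf, the fast skeletal light chain, was 3.12-fold higher in iPS CM on its stronger probe (adjusted p = 3.3e-05), and the call on its other probe was lost when arrays were scaled by the median (change 0.77, adjusted p = 0.065). The skeletal factors Myod1, Myog, Myf5 and Myf6 did not reach the detection filter.

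**Figure D4:**
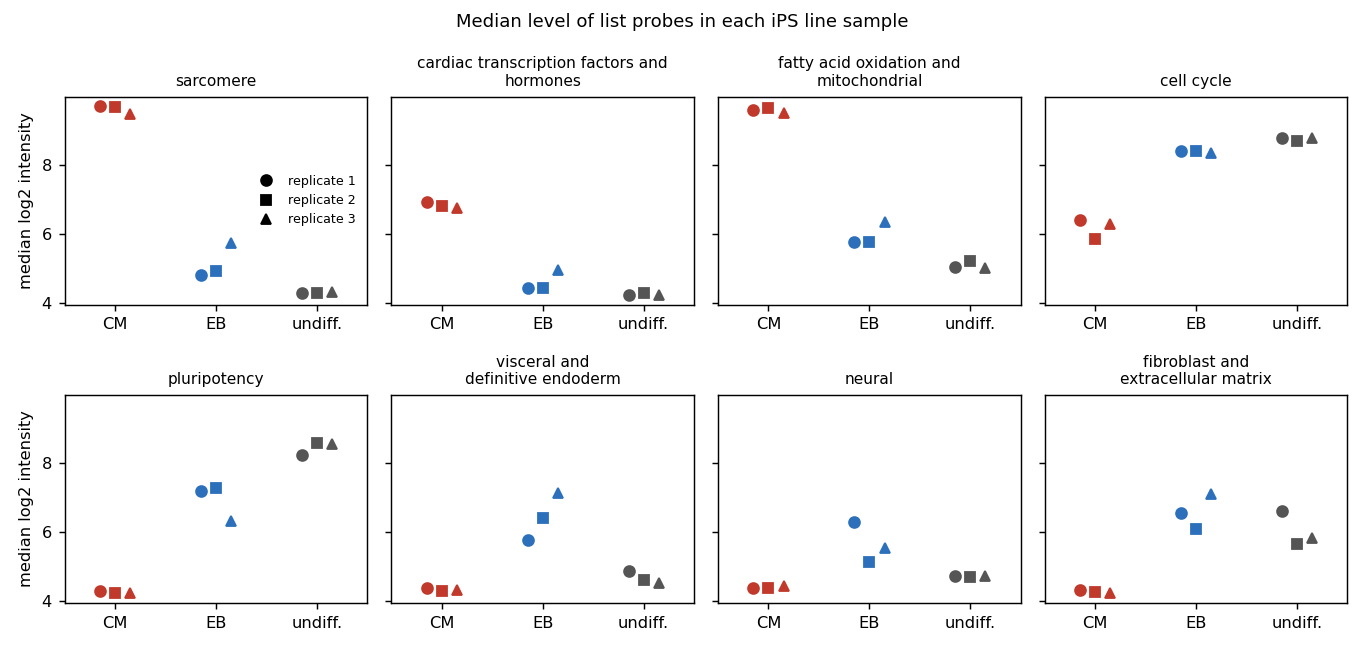
Median log2 intensity (y axis) of 8 gene lists in each sample of iPS CM, iPS EB and undifferentiated iPS cells (x axis); marker shape gives the sample number. The sarcomere median is 9.48 to 9.71 in iPS CM, 4.81 to 5.75 in iPS EB and 4.3 to 4.31 in undifferentiated cells, and the endoderm median is highest in iPS EB.

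Puromycin was given to iPS CM from day 9, so genes of drug and stress responses were examined as well. Genes of the p53 response and apoptosis gave 14 higher, 11 lower and 15 uncalled probes of 40 (median log2 change 0.05). These are shares of 35% and 27.5% beside the 28.5% and 29.6% of all probes. With median scaling the share called higher was 17.5%. Higher calls were then also fewer among all probes, at 40% of all calls against 49%. These are shares of calls, whereas the list shares are of tested probes. The matching counts over all tested probes are given above. Bbc3 (Puma), a p53 target that promotes apoptosis, read 6.37, 6.13 and 6.23 in iPS CM, against 8.1, 8.51 and 8.36 in iPS EB (4.22-fold lower in iPS CM, adjusted p = 9.5e-11). Gadd45g, a growth arrest gene, changed by 2.07 (adjusted p = 1.1e-06). Cdkn1a (p21), the cell cycle inhibitor, had 3 probes with changes of 1.08 (adjusted p = 0.0014), 0.61 (adjusted p = 0.051) and 0.54 (adjusted p = 0.086). Without iPS EB sample 3 the last 2 were 0.86 and 0.81 and passed the test (adjusted p = 0.0093 and 0.015). Mdm2, which p53 induces and which removes p53, had a change of -0.09 (adjusted p = 0.74). Stress and translation inhibition genes gave 12 higher, 4 lower and 8 uncalled probes of 24 (median log2 change 0.67). The higher share of 50% was 33.3% when arrays were scaled by the median, again beside fewer higher calls among all probes. Hspb1, a small heat shock protein abundant in muscle, was 5.51-fold higher in iPS CM (adjusted p = 1.3e-09). Herpud1, a gene of the endoplasmic reticulum stress response, changed by 2.23 (adjusted p = 1.3e-07). Atf3, an immediate stress factor, read 7.84, 6.51 and 5.84 in iPS CM and 5.02, 4.79 and 5.17 in iPS EB, with the iPS CM samples spread apart (adjusted p = 0.0016). Asns, asparagine synthetase, a target of the amino acid response, changed by -1.78 on its brightest probe (adjusted p = 2e-06). Probes of Trib3, Chac1, Jun and Egr1 were among those not called. With only the groups compared in the fit, Trib3 (-0.69, adjusted p = 0.038) and Chac1 (-1.16, adjusted p = 0.019) passed the test. Jun did so at 0.88 without iPS CM sample 3, and Egr1 at 0.69 with a fixed replicate block. Of the puromycin efflux pump genes, Abcb1b read 5.04, 4.98 and 4.78 in iPS CM, against 5.46, 5.89 and 5.56 in iPS EB (1.63-fold lower in iPS CM, adjusted p = 0.0057), and Abcc1 had a change of -0.05 (adjusted p = 0.73). Abcb1a and Abcg2 did not reach the detection filter.

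Of 30 Wnt, BMP and Notch probes (22 of 28 genes), 13 were lower (43.3%, beside 29.6% of all probes), 9 higher (30%, beside 28.5%) and 8 not called (median log2 change -0.36). Both Notch receptor genes of the list were lower, with Notch3 at -2.94 on the log2 scale (adjusted p = 1.9e-11) and Notch1 not above background in iPS CM and at least 4.13-fold lower. The Notch target Hey1, an atrial factor in the heart, changed by -2.05, whereas its relative Hey2, a ventricular factor, changed by 1.66. Sfrp2, a secreted Wnt modulator, was at least 3.19-fold lower, and Axin2, a common target of Wnt signalling, changed by -1.75. Id2 and Smad6, both targets of BMP signalling, changed by 1.79 and 1.77, although another Id2 probe did not pass the test (0.3, adjusted p = 0.27). Id3 (-0.49, adjusted p = 0.094), Bmp4 (-0.53, adjusted p = 0.27) and Dll1 (-0.34, adjusted p = 0.11) did not pass the test. Without iPS EB sample 2 the Id3 change was -0.86 (adjusted p = 0.001), and with median scaling that of Dll1 was -0.51 (adjusted p = 0.029).

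Set beside undifferentiated iPS cells, the lists fell into different patterns. The comparisons of iPS CM and iPS EB with undifferentiated cells share those cells, and both share samples with the comparison above, so their values are given side by side only. Against undifferentiated cells, 32.7% of all tested probes were higher and 33.6% lower in iPS CM, while 18.8% were higher and 18.7% lower in iPS EB. For the sarcomere list the median change was 4.99 in iPS CM and 0.49 in iPS EB. Of its 44 probes, 41 were higher in iPS CM and 20 in iPS EB than in undifferentiated cells. The pluripotency list had medians of -3.86 in iPS CM and -1.35 in iPS EB, and the cell cycle list -2.42 in iPS CM and -0.36 in iPS EB. The endoderm list was higher in iPS EB, with a median of 1.36 and 16 of 25 probes called higher, whereas in iPS CM the median was -0.38 with 8 called lower and none higher. For the neural list the medians were -0.09 in iPS CM and 0.83 in iPS EB, and for the endothelial list -0.88 in iPS CM and 0.09 in iPS EB. The feeder fibroblasts of the undifferentiated cultures were not removed from these values. The fibroblast and matrix sum was 10895 in undifferentiated sample 1, against 4461 and 4454 in samples 2 and 3.

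The ES line gave the same comparison in other cells, and the change in the iPS line was tested against the change in the ES line. Of all probes, 2872 of 21047 (13.6%) had different changes at an adjusted p below 0.05, 1471 with a higher change in the iPS line (6.99%) and 1401 with a lower one (6.66%). In the ES line itself 31.3% of probes were higher in ES CM and 31% lower. The sarcomere list had medians of 3.67 in the iPS line and 3.97 in the ES line, and 3 of 44 probes differed, all with a lower change in the iPS line. For Myh6 the changes were 5.34 in the iPS line and 5.27 in the ES line (difference 0.07, adjusted p = 0.95). Of the 15 highest changes, 1 differed between the lines, that of Kcng2 by 0.57 (adjusted p = 0.033). Nppa had a change of 2.59 in the iPS line and 4.45 in the ES line (difference -1.86, adjusted p = 0.00017). The Tpm1 change was -3.15 in the iPS line and -1.53 in the ES line (difference -1.62, adjusted p = 0.0035). Isl1 changed by -2.13 in the iPS line and by 0.92 in the ES line (adjusted p = 0.017), a difference of -3.05 (adjusted p = 0.00028).

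The cell cycle genes fell less in the iPS line. Their median was -2.02 there and -2.7 in the ES line, and 22 of 42 probes differed, 20 of them with a less negative change in the iPS line. Mcm6 changed by -2.74 in the iPS line and -4.76 in the ES line (difference 2.02, adjusted p = 9.6e-05). Tyms changed by -3 in the iPS line and -5.12 in the ES line (difference 2.12, adjusted p = 0.00039), and Cdc20 by -2.92 in the iPS line and -4.19 in the ES line (difference 1.27, adjusted p = 0.0045). The 2 probes that went against this belong to Mcm6 and Plk1, each with -2.31 in the iPS line and with -0.27 and -0.17 in the ES line. Another Mcm6 probe thus disagreed with the one named above. In the pluripotency list, with medians of -2.75 in the iPS line and -3.52 in the ES line, 13 of 37 probes differed, 10 of them with a less negative change in the iPS line. The list's sums were 943, 994 and 969 in iPS CM and 823, 829 and 881 in ES CM. In the embryoid bodies they were 29662, 37502 and 19567 in the iPS line and 37173, 55940 and 56636 in the ES line. The part of each group in the smaller change was not tested. Zfp42 (Rex1), a marker of naive pluripotent cells, changed by -2.38 in the iPS line and by -5.97 in the ES line. Counts of differing probes depended on single ES samples and on the scaling of arrays. Those with a lower change in the iPS line numbered 913 without ES EB sample 2, 910 without ES EB sample 3 and 922 without ES CM sample 3, and median scaling left 331 with a higher and 338 with a lower change.

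**Figure D5:**
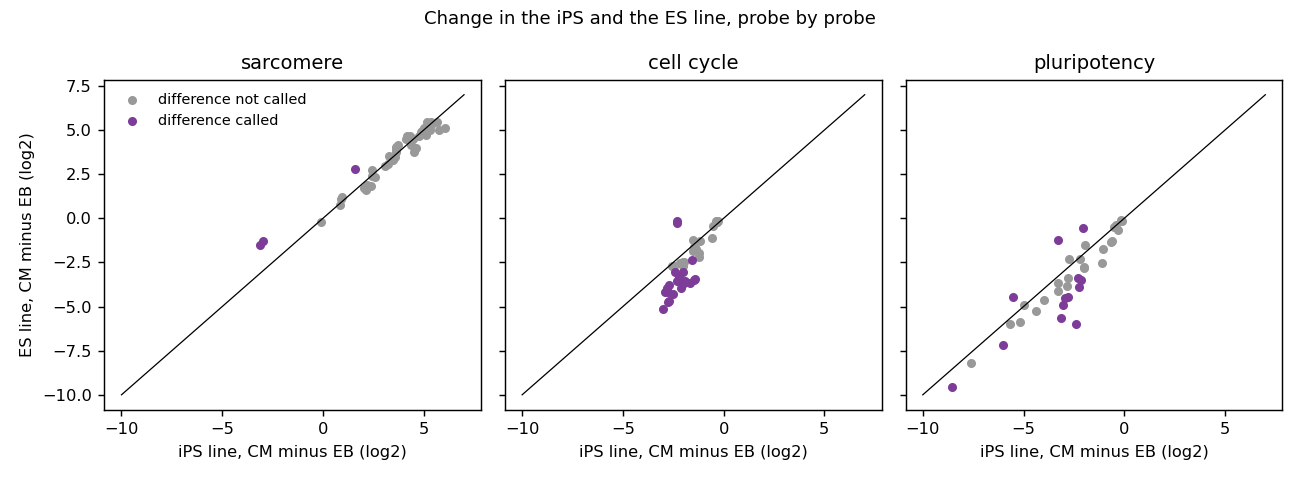
Log2 change of CM against EB in the iPS line (x axis) and in the ES line (y axis) for each tested probe of 3 gene lists; the line marks equal changes, and purple points differed between the lines at an adjusted p below 0.05. Sarcomere probes lie along the line, apart from 3, while 20 cell cycle probes lie below it and differ.

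From the probes called in the iPS line with groups that did not overlap there, the 6 genes with the largest differences in each direction were taken. This was done after the values were seen, and probes outside that set may differ more between the lines. Dusp2, a phosphatase that turns off MAP kinases, read 10.16, 10.32 and 10.1 in iPS CM and 4.74, 4.96 and 5.57 in iPS EB, a change of 5.1, against -0.17 in the ES line (difference 5.27, adjusted p = 6.1e-09). Il15, a cytokine of lymphocyte survival, read 9.3, 8.77 and 8.75 in iPS CM and 4.56, 4.8 and 4.88 in iPS EB, a change of 4.19, against 0.07 in the ES line. Both were higher in all iPS CM samples than in any iPS EB sample, as the choice of these genes required groups that did not overlap. Olig1, a factor of oligodendrocyte precursors, was not above background in iPS CM and read 9.26, 9.55 and 8.86 in iPS EB, at least 22.6-fold lower in iPS CM, while the ES line had a change of -0.16. Fgf5, a growth factor of the early embryo, changed by -3.97 in the iPS line and by -0.26 in the ES line. Fgf8, another such factor, and Lhx1, a factor of early mesendoderm, were not above background in iPS CM, with drops of at least 15.7-fold and 15.5-fold, while their fitted changes in the ES line were -1.27 and -1.44. Cryba1, Rhox9 and Aard were not above background in iPS CM, with drops of at least 1.53-fold, 1.38-fold and 2.64-fold, while their fitted changes in the ES line were -6.52, -4.86 and -5.46. Aurkc had fitted changes of -0.47 in the iPS line, where it was above background on no iPS CM array and 2 iPS EB arrays, and of -4.25 in the ES line. The iPS line calls on Rhox9 and Aurkc were lost in several reanalyses, such as without iPS CM sample 1. Col8a2, a short-chain collagen, was not above background in iPS CM, with a drop of at least 1.57-fold, and changed by 1.99 in the ES line.

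The 3 cultures of each group were compared with each other before being averaged. Per culture, the sarcomere median was 3.69, 4.38 and 3.2 and the endoderm median -0.79, -1.65 and -2.19, where each iPS CM sample was set against the iPS EB sample of the same number. Sample 3 of iPS EB was the highest of its group on 38 of 44 sarcomere probes and 26 of 29 cardiac factor probes, but on 23 of 49 calcium handling and 10 of 28 fatty acid and mitochondrial probes, and its pluripotency sum was the lowest of its group. Without it, 5632 probes were called higher and 5902 lower in iPS CM, against 5997 and 6230 with it. With any 1 of the 6 samples left out, 5539 to 5713 probes were called higher and 5646 to 5911 lower. With 3 samples against 3, an exact permutation test of a single value cannot go below a two-sided p of 0.1, so the calls rest on the limma model, which combines each probe's own spread over all groups (12 residual degrees of freedom) with a prior over probes (4.78 degrees of freedom).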

How the data were processed

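Total RNA was labelled with biotin and hybridised to Illumina bead arrays, per the labels' protocols. The deposited table gives, per array and probe, a linear mean intensity and the p-value of detection, neither corrected nor normalised, per the file headers. The tools and software of the authors' processing are not given in the sources used here.

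Intensities were background corrected from the detection p-values, quantile normalised and put on the log2 scale with an offset of 16 (neqc of limma 3.58.1, R 4.3.3). A probe counted as above background at a detection p below 0.01. The 21047 probes above background on at least 3 of 21 arrays were tested in 1 limma model with 7 groups and 19 samples. Benjamini-Hochberg adjustment ran over all tested probes, with a threshold of 0.05. The fibroblast arrays, technical replicates per the submitters' design text, were averaged, although their labels give different passages. With the fibroblasts as 3 samples, 491 of 498 named probes kept their side of the threshold. The offset makes log2 changes of dim probes smaller than the true changes. Where a probe was above background on no array of a group, an "at least" fold is given, taken against the higher of the lowest detected signal and the probe's own reading.

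The second deposited table holds intensities that the authors had quantile normalised, judging by equal distributions on all arrays, and was an alternative only. Its identifiers were out of step with the first table, so its rows were matched by value. In the first table, probes of the same gene correlated across arrays with a median of 0.819 over 2907 genes with 2 probes, against 0.0545 in the second. Gene names came from the platform annotation. Of 45281 probes, 34885 had 1 symbol, 18 several and 10378 none listed, and 34807 probes were found in RefSeq by Entrez identifier and carry its current symbol. Cross-hybridisation between similar genes was not checked. Of 4424 genes with several tested probes, 93 had probes called in opposite directions.

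The genes named are the 15 highest and 15 lowest changes among called probes with 1 symbol and groups that did not overlap. Added to these, per list, are up to 4 genes with the largest changes and part of the genes not called. Other list members are named as examples, picked after their values were seen. The comparison, the members and the lists were chosen with earlier results of these data known. Same-numbered iPS CM and iPS EB samples share a batch and a passage per the labels, so the numbers pair the samples. Their deviations from the group means correlated at 0.064, -0.12 and -3.3e-05. The model has no replicate block, and the fit with one is given below. Precision rests on 3 arrays per group. The test was also run on simulated data with independent normal errors and few changed probes. That simulation leaves out normalisation, shared batches and signal near background, so it does not show how the test behaves under them.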

Additional observations from a re-analysis of the deposited data

Results flagged for a closer look

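The change of CM against EB differed between the iPS and the ES line, by the test of the difference itself, on 2872 of 21047 probes (13.6%). The values that follow are the iPS change minus the ES change on the log2 scale, each with an adjusted p below 0.05 in limma. The sizes are fitted values and not exact for probes above background on no iPS CM array, which were those of Dppa5a, Dppa4, Cldn6, Cdh1, Flt1, Emcn, Cdh5, Laptm5, Lyz2, Cd14, Dcn, Tnnt3, Heyl, Cryba1, Rhox9, Aurkc, Aard, Olig1, Fgf8, Lhx1 and Col8a2. The Ckm probe was above background on 1 iPS CM array and no iPS EB array.

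Among heart genes the difference was 0.57 for Kcng2, -0.91 for Hrc, -1.1 for Myocd and -1.59 for Ckm. It was -3.05 for Isl1, which changed in opposite directions in the 2 lines. Among fast skeletal muscle genes it was 3.31 for Mylpf, which was higher in iPS CM and lower in ES CM, and it was -1.36 for Tnnt3 and -1.68 for Tnni2. For the heat shock gene Hspb1 it was 1.36.

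Cell cycle genes had positive differences of 2.12 for Tyms, 2.02 for Mcm6, 1.27 for Cdc20 and 1.14 for Bub1b, so these genes were lower in CM by less in the iPS line. Pluripotency and early embryonic genes went both ways, with 0.99 for Dppa5a, 1.18 for Dppa4, -1.81 for Dnmt3b and -1.04 for Sall4. Epithelial and endoderm genes had differences of -1.58 for Spink1, -2.09 for Krt8, -2.73 for Cldn6, -0.92 for Cdh1 and 1.44 for Amn.

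Of the endothelial genes Flt1 had -2.85, Emcn 0.86 and Cdh5 0.93. Of the blood genes Laptm5 had 1.31, Lyz2 2.24 and Cd14 0.64. The matrix gene Dcn had 1.61, the apoptosis gene Bbc3 -1.08, the Notch targets Hey1 and Heyl -1.38 and 0.46, and the efflux pump gene Abcb1b 1.33.

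The genes chosen for their difference had 5.4 (Cryba1), 5.27 (Dusp2), 4.12 (Il15), 3.85 (Rhox9), 3.79 (Aurkc) and 3.6 (Aard) with a higher change in the iPS line. With a lower change they had -4.78 (Olig1), -3.71 (Fgf5), -3.2 (Fgf8), -3.06 (Lhx1) and -3.02 (Col8a2), beside Isl1. With 1 line of each kind, the difference between iPS and ES cells and that between these particular lines cannot be told apart.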

How the results depend on the processing

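No named probe changed direction with a call under the alternatives in which it could be fitted, and the filter on the groups compared left out part of the 498 named probes. With the replicate number as a fixed replicate block, 6007 probes were called higher and 6208 lower in iPS CM, and 1338 and 1282 had a higher or lower change in the iPS line. Under the block 493 of 498 named probes kept their side of the threshold. Scaling by the median in place of quantile normalisation moved the median change of all probes to -0.12, lowered the higher calls to 3887 and the share of higher calls to 40% from 49%, and left 331 and 338 differences between lines, so that those with a lower change in the iPS line became the more numerous. It also moved the smooth muscle share called lower to 27.8%, the p53 share called higher to 17.5% and the stress share called higher to 33.3%. These are shares of the tested probes of each list, not of calls. With only the brightest probe of each gene, the shares called lower were 5% for calcium handling, 5.88% for cardiac factors, 0% for smooth muscle and 50% for efflux pumps, and the neural share called higher was 0%. With 1 sample left out, higher calls numbered 5539 to 5713 and lower calls 5646 to 5911. Differences between lines then numbered 981 to 1824 higher and 910 to 1682 lower, the blood share called lower was 10% to 20% and the smooth muscle share 0% to 16.7%. Under median scaling 468 of them kept it, and 490 did so with the authors' normalised values. The cause of these shifts was not tested. Signal near background limits the change that can be measured for genes read at the floor of the iPS CM arrays.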

Other observations

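Genes that share a symbol root, grouped after the values were known, showed further sides of the comparison of iPS CM with iPS EB. Beside them, 28.5% of all tested probes were higher in iPS CM and 29.6% lower. Subunits of 4 complexes of oxidative phosphorylation were mostly higher in iPS CM beyond the muscle forms named above. Of 49 probes of complex I (Nduf) genes, 48 were called higher and 1 lower, with a median log2 change of 1.64. For complex III (Uqcr) it was 6 of 7 probes (median 1.48), for cytochrome c oxidase (Cox4 to Cox8) 15 of 17 (median 1.37) and for ATP synthase (Atp5) 25 of 26 (median 1.39). The 2 probes called lower in cytochrome c oxidase belong to Cox6b2 and Cox8c, both testis forms. Cox6b2 was not above background in iPS CM and at least 5.86-fold lower there. Cox8c was above background on no iPS CM array and only 1 iPS EB array, so no size is given. Median scaling left the counts at 46, 6, 15 and 24. Mitochondrial ribosomal protein genes were called higher on 63 of 114 probes (median 0.43), or on 32 with median scaling.

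Cytosolic ribosomal proteins and tRNA synthetases ran the other way. Of 75 probes of cytosolic ribosomal protein genes, 63 were lower in iPS CM and 1 was higher, with a median of -0.71, and 52 were lower with median scaling. The 1 higher probe belongs to Rpl3l, the form of Rpl3 made in heart and skeletal muscle, with a change of 2.83. Of 29 aminoacyl tRNA synthetase probes, 20 were lower and 1 higher (median -0.57), and Vars had the lowest change at -2.54. With median scaling 19 of them were lower and 0 higher. Among the importins and karyopherins, which carry proteins into the nucleus, 8 of 12 probes were lower and 3 higher, with Ipo5 at -1.87. Median scaling left 7 of these lower and 0 higher.

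Families of structural genes were split by member. Of the laminins, Lama2 and Lamb2, chains found in muscle basement membrane, changed by 2.19 and 2.13, while Lama1, a chain of the early embryo, was not above background in iPS CM and at least 3.66-fold lower. Col4a5 changed by 2.72 on its stronger probe and Col9a3, a cartilage collagen, had a drop of at least 6.51-fold. Of the claudins, 9 of 14 probes were lower and 1, of Cldn12, was higher. Pdlim5, a Z disc protein of heart, changed by 4.57 on 1 probe, whereas Pdlim7 changed by -4.26. Of 49 potassium channel probes, 23 were higher and 11 lower, with Kcne1 at least 10.2-fold higher and Kcnk1 at least 8.66-fold lower in iPS CM. Tubb2b, a neuronal tubulin, was lower on all of its 5 probes, by 1.77 to 3.15 on the log2 scale.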
